A study of Mus musculus with 24 samples.

Results

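The genes described here encode 10 cytosolic aminoacyl-tRNA synthetases, Aars, Cars, Eprs, Gars, Iars, Lars, Mars, Nars, Sars and Wars. They were chosen by name: every non-control probe that the scanner files named for the gene or its synonym was taken, which gave 25 of 41174 probes. The probes of the array could be matched to 19506 genes in all. The brightest probe over all 24 arrays stands for a gene below, and other probes that gave another call are given with each comparison. The reference table calls Mars by its newer symbol Mars1. Each aminoacyl-tRNA synthetase joins its own amino acid to the matching tRNA, the step that supplies the ribosome. The enzymes for glutamate and proline (Eprs, a fused enzyme), isoleucine (Iars), leucine (Lars) and methionine (Mars) sit with scaffold proteins in a multisynthetase complex, while those for alanine (Aars), cysteine (Cars), glycine (Gars), asparagine (Nars), serine (Sars) and tryptophan (Wars) do not. When amino acids run short or proteins misfold, the factor ATF4 is known to raise transcription of many of these genes, and Wars is also known as an interferon-induced gene.

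All RNA came from immortalized Ku70-/- mouse embryonic fibroblasts, for which the labels give a deletion of Xrcc6, the gene for the DNA end-binding protein Ku70, in untreated and treated cells alike. The Xrcc6 probe was nevertheless well above background on all 24 arrays, at log2 signals of -0.60 to 0.73 relative to the array's 75th percentile. Whether that probe lies in the deleted part of the gene is not given in the sources used here, so the array does not show the deletion. There were 8 groups of 3 arrays each. The first array set held 15 arrays: untreated cells, cells given 20 mM KBrO3 (an oxidizing salt) for 1 hr and sampled at 4 or 24 hr (3 or 23 hr of recovery), and cells that also had 150 µM bisphenol A (BPA) before, during and after the KBrO3. The second set held 9 arrays: its own untreated cells and cells in BPA alone, labelled 4 and 24 hr. The labelled times count from the start of KBrO3 in cultures run in parallel, so cells in BPA alone had been in BPA for 1 hr longer than their label. The sets were scanned with different software versions, so treated arrays were compared only with untreated arrays of their own set. All 4 comparisons of KBrO3 or KBrO3+BPA with untreated cells share the same 3 untreated arrays, and the 2 comparisons of BPA alone share the other 3. The labels give 4 hr for the untreated arrays of the first set and no time for those of the second, so in the 24 hr comparisons of the first set time in culture and treatment cannot be told apart.

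Between 57.7 and 68.1% of spots were well above background on the arrays of the first set and between 76.4 and 79.4% on those of the second, and replicate arrays correlated at 0.97 or higher. The arrays lay on 5 slides in each set, and slide and treatment overlapped only in part. Of 9 fibroblast markers, 8 were well above background on all 24 arrays and Thy1 was on 19, whereas 0 of 5 epithelial markers, 1 of 5 macrophage markers (Cd68) and 2 of 4 endothelial markers (Kdr and Tek) were. The leukocyte marker Ptprc was above background on 6 of 24 arrays. Of the 9 fibroblast markers, 1 was lower 4 hr after KBrO3 or KBrO3+BPA, 7 were lower 24 hr after KBrO3 and 8 were lower 24 hr after KBrO3+BPA. Over all genes tested, 16.7% and 19.7% were altered and lower at 4 hr and 11.8% and 12.8% at 24 hr, without and with BPA. Their summed signal, in multiples of the array's 75th percentile, was 1500 to 1600 on untreated arrays, 1390 to 1480 and 1030 to 1070 at 4 hr, and 657 to 745 and 447 to 526 at 24 hr, without and with BPA. The summed macrophage signal (Cd68 was the marker above background on every array) was 0.153 to 0.197 on untreated arrays and 0.304 to 0.681 on those with KBrO3. The endothelial marker Kdr was altered and higher 4 hr after KBrO3 (2.87-fold), 4 hr after KBrO3+BPA (2.65-fold) and 24 hr after KBrO3 (3.0-fold), and at 24 hr with BPA its 1.52-fold difference did not pass. The summed endothelial signal was 0.106 to 0.145 on untreated arrays, 0.174 to 0.187 and 0.166 to 0.216 at 4 hr, and 0.139 to 0.176 and 0.0873 to 0.103 at 24 hr, without and with BPA. Whether these shifts have a part in the synthetase results was not tested.

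The sequences below show what the array read for the gene whose brightest probe rose most, Gars, and for the gene whose probes disagreed most, Aars. The Gars probe lies at chr6:55032852-55036763 in the scanner files' annotation (mouse build mm7, plus strand), a span of 3912 bases for 60 bases of probe. The second brightest Aars probe lies at chr8:109650049-109650547 (plus strand, a span of 499 bases). The third was designed on a RIKEN full-length cDNA and lies at chr8:109646687-109646746 (plus strand), without a gap.
Gars: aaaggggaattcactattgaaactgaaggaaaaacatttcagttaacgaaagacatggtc
Aars, probe ranked 2: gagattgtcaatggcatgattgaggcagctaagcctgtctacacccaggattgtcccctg
Aars, probe ranked 3: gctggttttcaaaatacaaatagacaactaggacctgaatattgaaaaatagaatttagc

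The promoters are shown because all 10 genes were altered and higher 24 hr after KBrO3+BPA and because ATF4, with C/EBP partners, is known to bind an element whose core is TGATGNAA. Both strands of the RefSeq promoter windows (GRCm38.p6, from 250 bases before the start of transcription to 50 after it) were searched for these letters. Windows were found for 6 of the 10 genes (Aars, Eprs, Gars, Iars, Mars and Sars), and 3 of them held a match: Aars with first bases at -112 and 10 from the start, Gars at -30, and Iars at 8. The same letters were found in 2 of 8 windows of the other cytosolic synthetases and in 5 of 16 of a list of known ATF4 targets. Of all 32851 promoter windows, 3.97% held a match, or 4.51% of 27025 genes. The stretches run 5′ to 3′ along the gene with the match in capitals. In Aars, Gars and Iars the letters stand on the opposite strand, so the printed match is their reverse complement. Asns, asparagine synthetase, is added because its profile over the arrays was among the most like that of the synthetases (below). The Aars stretch is chr8:111033712-111033841 (plus strand), that of Gars is chr6:55037871-55038000 (plus strand), that of Asns is chr6:7693210-7693339 (minus strand), and that of Iars, which crosses the start, is chr13:49682122-49682149 (plus strand). A match is a description of the letters only.
Aars: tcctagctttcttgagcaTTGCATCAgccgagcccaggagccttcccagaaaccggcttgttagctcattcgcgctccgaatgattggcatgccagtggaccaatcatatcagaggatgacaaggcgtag
Gars: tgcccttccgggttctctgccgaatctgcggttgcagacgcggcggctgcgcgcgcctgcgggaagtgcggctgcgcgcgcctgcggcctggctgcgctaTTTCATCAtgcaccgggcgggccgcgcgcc
Asns: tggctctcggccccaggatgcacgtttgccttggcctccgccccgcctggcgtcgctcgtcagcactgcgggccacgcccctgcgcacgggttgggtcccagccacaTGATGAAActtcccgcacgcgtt
Iars: ctggcactgtcagtaTTGCATCAcctcc

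Signals are given as log2 of the processed signal minus the array's 75th percentile, so they are relative to the other probes of that array, and a change in RNA per cell cannot be told apart from a change in composition. A gene is called altered when the Bonferroni-adjusted p of limma's test over all probes of the set was below 0.01 and the fold change was beyond 1.5, the thresholds of the study's methods. Each difference below is a log2 fold change with its SE, with n = 3 arrays a group.

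**Figure D1:**
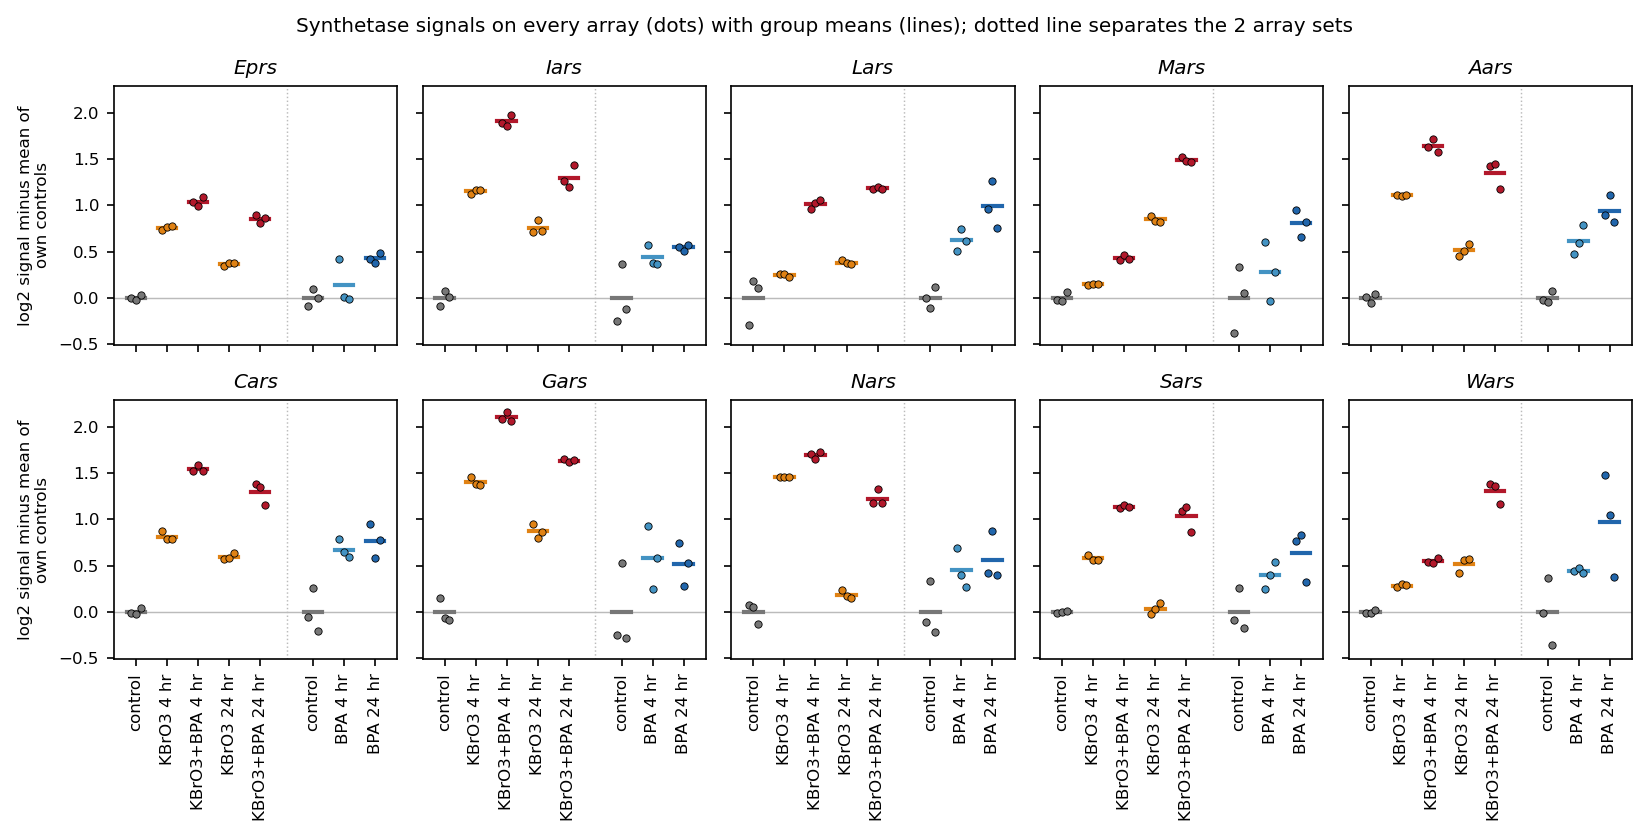
Signal of each synthetase gene on every array (dots) and its group mean (lines), as log2 signal minus the mean of the untreated arrays of the same set, with 3 arrays a group. Gars reached 2.10 above untreated 4 hr after KBrO3+BPA, whereas Mars reached its highest level, 1.49 above untreated, at 24 hr.

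At 4 hr after KBrO3 alone, 6 of the 10 genes were altered and 0 were lower. They were Nars, Gars, Iars, Aars, Cars and Eprs, with fold changes from 1.69 (Eprs) to 2.75 (Nars). Among all 14549 genes tested in the first set, 14.4% were altered and higher in this comparison, and the median log2 fold change was 0.02 over all genes against 0.78 over the 10. Of the complex members, Iars and Eprs rose while Lars and Mars stayed at 0.25 ± 0.09 and 0.15 ± 0.04. The estimate for Mars was -0.021 after quantile normalization. Nars, the asparagine enzyme, was 1.60, 1.77 and 1.80 on the untreated arrays and 3.18 on each of the 3 KBrO3 arrays. That is a difference of 1.46 ± 0.06 (adjusted p = 5.37e-07), with every treated array above every untreated one. Gars, whose product charges glycine tRNA in the cytosol and in mitochondria, was 0.19, 0.21 and 0.43 untreated and 1.65, 1.66 and 1.73 after KBrO3. Sars missed both thresholds narrowly, at 0.58 ± 0.06 (1.49-fold, adjusted p = 0.0254). On the slide that held the third untreated array together with all 3 KBrO3 arrays, the 10 differences ran from 0.09 to 1.58, and the fit with slide as a fixed block also called 6 genes. The count was 2 with normexp background correction and 1 when only these 2 groups were fitted. Probes of called genes that missed the call were the 3 dimmer ones of Aars (0.68, 0.67 and 0.39) and those ranked 2 and 4 of Eprs (0.72 and 0.46).

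With BPA added to KBrO3, 8 of the 10 genes were altered at 4 hr and all 10 at 24 hr, each of them higher, where 16% and 10.8% of all genes tested were altered and higher. The median of the 10 was 1.34 at 4 hr (0.01 over all genes) and 1.3 at 24 hr (-0.06 over all genes). At 4 hr the largest rise was that of Gars (2.34, 2.36 and 2.44 on the co-exposed arrays), 2.10 ± 0.06 or 4.29-fold (adjusted p = 2.03e-08), followed by Iars at 3.74-fold and Nars at 3.24-fold. Mars and Wars were not altered at that time, at 0.43 ± 0.04 and 0.55 ± 0.06. At 24 hr the folds lay between 1.81 (Eprs) and 3.1 (Gars), and Mars had joined the highest, at 2.81-fold (adjusted p = 2.21e-09). The co-exposed arrays shared no slide with untreated ones, so slides could not serve as a fixed block in these comparisons. With slide as a random block, 7 genes were called at 4 hr and 9 at 24 hr, and with only the compared groups fitted, 5 and 1. Among the other probes of called genes, the dimmest of Aars and the second of Eprs missed the call at both times and the third of Lars at 4 hr.

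After KBrO3 alone, 4 of the 10 genes were altered at 24 hr, against a background of 7.9% of genes altered and higher. These were Gars (1.83-fold), Mars (1.80-fold), Iars (1.69-fold) and Cars (1.51-fold). Cars lay just past both thresholds (adjusted p = 0.00773). The untreated Sars values were 4.59, 4.6 and 4.61, and the 3 arrays 24 hr after KBrO3 read 4.58, 4.63 and 4.70, the one gene of the 10 whose arrays overlapped with untreated. Over all genes tested, 32.8% had all 3 arrays above untreated. Nars, the highest riser at 4 hr by brightest probe, was 0.19 ± 0.06 above untreated. At 4 hr the second probes of Aars (2.99-fold) and Iars (2.98-fold) had risen further than that of Nars. The second Aars probe (1.19, 2.28-fold) and the third Eprs probe (0.66) were altered where the brightest was not, and the third Iars probe (0.62, adjusted p = 0.0114) was not altered where the brightest was. The count was 2 when any KBrO3 24 hr or any untreated array was left out, 1 with slide as a random block, 0 when these 2 groups were fitted alone, and 2 with median scaling. That scaling moved the median over all probes to 0.12 and the share of altered probes that were higher from 44.1% to 57.4%, and for KBrO3+BPA at 24 hr, where it left 10 genes called, to 0.25 and from 46.9% to 70%. With normexp background correction, which left 0 genes at 24 hr after KBrO3, the medians over all probes against untreated lay between -0.52 and -0.44, and 32% of altered probes were higher.

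**Figure D2:**
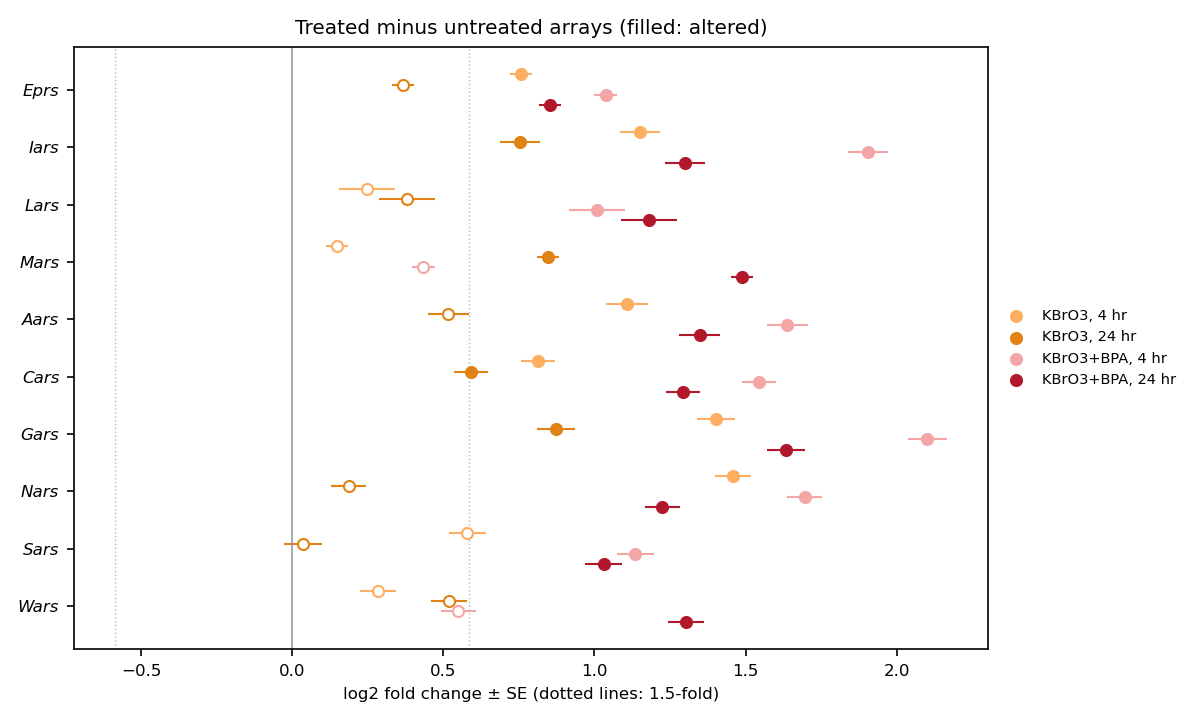
Log2 fold change of each gene against untreated arrays with its SE, for KBrO3 and KBrO3+BPA at 4 and 24 hr, with filled points for altered genes and dotted lines at a fold change of 1.5. All 10 genes are filled 24 hr after KBrO3+BPA, and 4 are filled 24 hr after KBrO3 alone.

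The direct comparison of KBrO3+BPA with KBrO3 asks what BPA added. At both times each of the 10 genes was higher with BPA on all 3 arrays than on any array without it, as were 37.7% of all genes tested at 4 hr and 28.6% at 24 hr. At 4 hr, 3 genes were altered: Iars (0.75 ± 0.07, adjusted p = 0.00334), Cars (0.73 ± 0.06, adjusted p = 0.000829) and Gars (0.70 ± 0.06, adjusted p = 0.00445). At 24 hr, 7 were altered, namely Nars, Sars, Aars, Wars, Gars, Cars and Mars, with folds from 1.56 (Mars) to 2.05 (Nars). Over all genes, 2.84% were altered and higher at 4 hr and 3.78% at 24 hr. The median log2 fold change of the 10 was 0.54 at 4 hr and 0.77 at 24 hr, against -0.01 and 0.00 over all genes tested.

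Sars, the serine enzyme, shows the later difference. It was 4.58, 4.63 and 4.70 on the KBrO3 arrays at 24 hr and 5.46, 5.69 and 5.74 on the co-exposed arrays, a difference of 0.99 ± 0.06 (adjusted p = 7.52e-05). For Wars, the tryptophan enzyme, the 24 hr values were 1.98, 2.11 and 2.13 without BPA and 2.72, 2.91 and 2.94 with it. Of the complex members, Mars passed at 24 hr (0.64 ± 0.04), Eprs had a small adjusted p (0.00064) at a fold of 1.40, and Iars and Lars had 0.54 ± 0.07 and 0.80 ± 0.09 with adjusted p-values of 0.0979 and 0.06. Among the 25 probes, all had a positive estimate in both comparisons. At 24 hr, other probes lost the call for 4 of the 7 genes: the second probes of Mars (0.67, adjusted p = 0.0202), Cars (0.54, adjusted p = 0.288) and Wars (0.95, adjusted p = 0.181), and the 3 dimmer probes of Aars (0.39 to 0.60). Lars passed with its second probe (0.84) and not with its brightest. At 4 hr the third Cars probe (0.55) was not altered, while the Aars probes ranked 3 and 4 (1.60 and 1.73) were, where the brightest was not.

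The calls at 4 hr rested on few arrays and on the settings. Leaving out 1 KBrO3 or KBrO3+BPA array at 4 hr left 0 or 1 genes altered. Those 2 groups shared no slide, and with slide as a random block 0 were called, at estimates of 0.82 ± 0.11 for Iars, 0.74 ± 0.08 for Cars and 0.61 ± 0.11 for Gars. Median scaling also left 0, and moved the median over all probes to -0.12 and the share of altered probes that were higher from 50.2% to 30.7%. At 24 hr, 2 arrays of each group shared a slide. Within that slide all 10 differences were positive (0.45 to 1.09), and with slide as a fixed block 6 genes were called. With 1 array left out at 24 hr, 4 to 6 were called, and the count was 4 without the second array of either group. Median scaling gave 5, with 65.4% of altered probes higher in place of 47.3%. Normexp background correction, and a fit of the 2 compared groups alone, each left 0 called at 4 hr and 0 at 24 hr.

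A change in the BPA-added difference between 4 and 24 hr was tested as a contrast of its own. Here a gene was called when its p, adjusted over all probes by the Benjamini-Hochberg method, was under 0.05. It was positive for 6 of the 10 genes and negative for 0, where 31% of all genes passed in the positive direction. Nars changed most: the added difference was 0.24 ± 0.06 at 4 hr and 1.04 ± 0.06 at 24 hr, a change of 0.80 ± 0.08 (adjusted p = 1.46e-05). Wars (0.52 ± 0.08), Sars (0.44 ± 0.09), Mars (0.36 ± 0.05), Aars (0.30 ± 0.10) and Eprs (0.21 ± 0.05) also passed. Cars (-0.03 ± 0.08), Gars (0.06 ± 0.09), Lars (0.04 ± 0.13) and Iars (-0.21 ± 0.09, adjusted p = 0.0779) did not. The probes of 3 genes gave calls in the negative direction. Those of Aars disagreed in direction. Its brightest probes gave 0.30 and 0.23 (adjusted p = 0.0195 and 0.0901), while the dimmer ones, ranked 3, 4 and 5, gave -1.0, -1.34 and -0.94, and each of these passed. On the probes ranked 3 and 4 the BPA-added difference at 4 hr was 1.60 and 1.73 and passed the test, against 0.53 and 0.56 on the brighter ones, which did not. The mean over the Aars probes gave -0.55. For Lars the brightest probe did not pass, but the second and the third did, at 0.42 and 0.58. The dimmest Eprs probe (0.22, adjusted p = 0.0639) did not. The second Cars probe (-0.53, adjusted p = 0.00121) and the second and the third Iars probes (-0.18 and -0.30, adjusted p = 0.0332 and 0.0124) passed in the negative direction. Of all 25 probes, 12 passed as positive and 6 as negative. With slide as a random block 4 genes were called, and Aars (0.31 ± 0.12) and Eprs (0.17 ± 0.08) lost the call. With normexp correction 1 gene was called. Median scaling moved the median over all probes to 0.25.

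**Figure D3:**
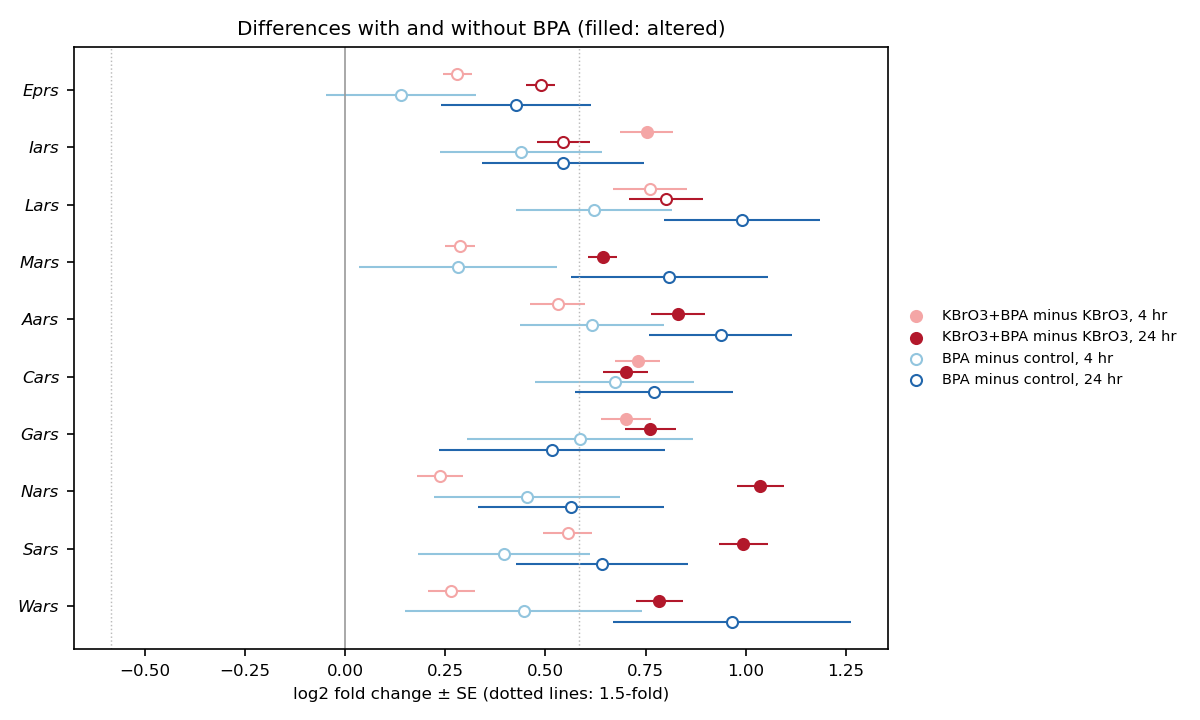
Log2 fold change with its SE for KBrO3+BPA minus KBrO3 (first array set) and BPA minus untreated (second set), at 4 and 24 hr, with filled points for altered genes. All estimates lie above 0, and the bars of the second set are longer than those of the first.

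BPA without KBrO3 gave 0 altered genes among the 10 at either time by limma's test. At an unadjusted p under 0.05, 3 of them were higher at 4 hr and 9 at 24 hr, against 9.66% and 10.3% of all genes. Few genes of any kind passed in this set: 0.104% of 16344 genes tested were altered and higher at 4 hr and 0.00612% at 24 hr. All 10 estimates were positive, from 0.14 (Eprs) to 0.67 (Cars) at 4 hr and from 0.43 (Eprs) to 0.99 (Lars) at 24 hr, although the second probes of Mars (-0.24) and Wars (-0.08) were negative at 4 hr. Leaving out the first BPA array at 4 hr took the estimate of Eprs to -0.0016. The median of the 10 was 0.45 at 4 hr (-0.06 over all genes) and 0.71 at 24 hr (0.02 over all genes). All 3 BPA arrays lay above all 3 untreated arrays for 5 of the 10 genes at 4 hr and for 9 at 24 hr. Over all genes tested, that was so for 13.3% and 13.7%.

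Under the less strict rule of a Benjamini-Hochberg adjusted p below 0.05 with a fold beyond 1.5, 2 of the 10 genes were higher at 24 hr, where 1.8% of all genes were. Lars was 4.10, 4.21 and 4.33 on untreated arrays and 4.97, 5.17 and 5.48 on the arrays of BPA alone labelled 24 hr, a difference of 0.99 ± 0.19 (Benjamini-Hochberg adjusted p = 0.0284). Aars was 4.69, 4.71 and 4.81 untreated and 5.55, 5.62 and 5.84 with BPA, or 0.94 ± 0.18 (adjusted p = 0.0255 by the same method). Both calls rested on the brightest probe. No other probe of Lars (adjusted p = 0.209 and 0.813 by that method) or of Aars (0.0974 to 0.641) passed. The spread was wider for other genes. Gars, for example, had untreated values of 0.78, 0.82 and 1.60, which overlapped with 1.35, 1.60 and 1.81 at 24 hr. SEs of the 10 genes in this set were 0.18 to 0.30, against 0.04 to 0.09 for the 2-group differences of the first. Where BPA and untreated arrays shared a slide, the mean of the BPA arrays on it was set against the untreated array. All 10 differences were positive on each such slide, from 0.30 to 1.00 at 4 hr (2 BPA arrays against 1), and from 0.09 to 1.11 and 0.38 to 1.40 on the 2 slides at 24 hr. Between the arrays of BPA alone labelled 24 and 4 hr, 0 of the 10 genes were altered and 0 had an unadjusted p under 0.05. Of all 16344 genes tested, 0 were altered and higher and 9 altered and lower, and 21.6% had an unadjusted p under 0.05 in either direction.

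Between 4 and 24 hr, 2 of the 10 genes were altered after KBrO3 and 2 after KBrO3+BPA. After KBrO3 alone, Nars fell by 1.27 on the log2 scale, from 3.18 on each array to 1.87, 1.89 and 1.96 (adjusted p = 2.56e-06), and Mars rose by 0.70 ± 0.04, from 2.40 on each array to 3.07, 3.08 and 3.14 (adjusted p = 1.24e-05). In that comparison 15.7% of all genes were altered and lower and 13.9% altered and higher. After KBrO3+BPA, Mars (1.05 ± 0.04) and Wars (0.75 ± 0.06, adjusted p = 0.000941) were altered and higher, where 18.1% of all genes were. In the same comparison 0 of the 10 genes were altered and lower, and 16.3% of all genes were. Leaving out the first or second co-exposed array at 4 hr, or the second at 24 hr, left 1 of these. With slide as a fixed block Wars lost its call (0.68, adjusted p = 0.012), and its second probe (1.07, adjusted p = 0.0535) did not pass either. Normexp background correction left 0 genes altered in both changes with time, and a fit of the 2 compared groups alone left 1 after KBrO3 and 0 after KBrO3+BPA. The second Mars probe passed without and with BPA, at 0.76 and 1.17. The remaining genes were not altered at these thresholds, although the third Iars probe fell by 0.73 and 1.02 without and with BPA and the third Aars probe fell by 1.08 with it. The median over all probes was itself -0.12 without BPA and -0.22 with it, and scaling decided some signs: after KBrO3, the estimates for Aars (-0.59), Iars (-0.40) and Cars (-0.22) became 0.057, 0.017 and 0.049 after quantile normalization. The share of altered probes that were higher was 45.5% without BPA and 47.2% with it, and rose to 57.1% and 76.2% with median scaling and to 58.1% and 60.2% after quantile normalization. Of the 9 fibroblast markers, 7 were lower at 24 than at 4 hr without BPA and 6 with it.

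**Figure D4:**
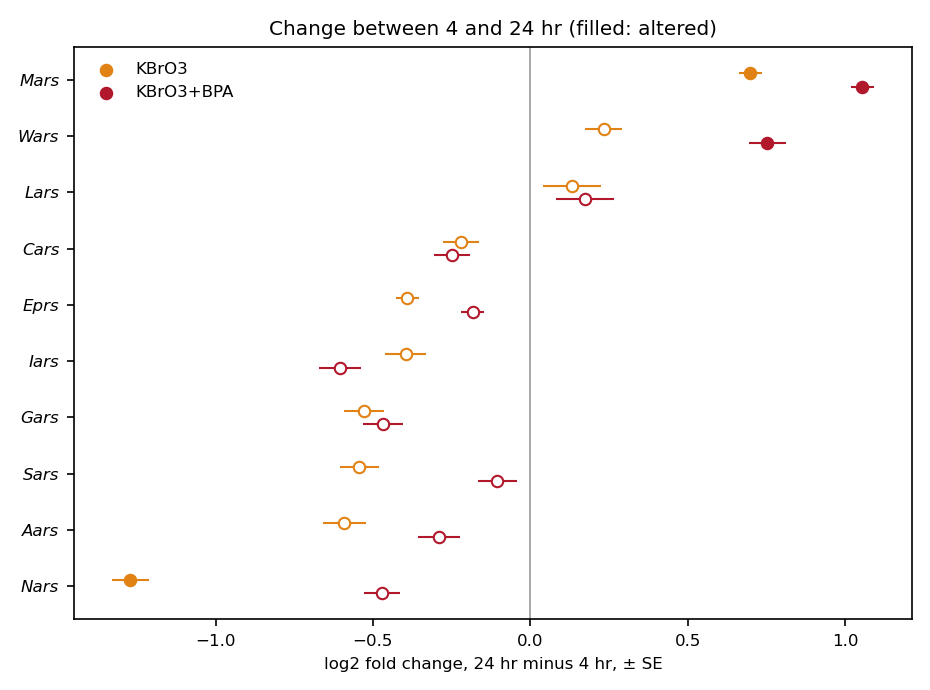
Log2 fold change from 4 to 24 hr with its SE, after KBrO3 and after KBrO3+BPA, with filled points for altered genes, ordered by the change after KBrO3. Nars lies at -1.27 and Mars at 0.70 after KBrO3 alone.

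Over the 15 arrays of the first set, the centred signals of the genes were compared with the mean of the other 9. Pearson's r was 0.99 for Cars, 0.97 for Aars and Eprs, 0.84 for Nars, 0.71 for Wars and 0.48 for Mars. The arrays share groups, slides and the same scaling, so these values describe this set. Among 14523 other genes, the 8 whose profile was most like the mean of the 10 were Ghitm (r = 0.99), Asns (0.99), Usb1, Riox2, Psph, Kctd13, Lap3 and Ero1a (all 0.98). Asns, which makes asparagine, rose 2.06-fold 4 hr after KBrO3 and 3.59-fold 4 hr after KBrO3+BPA, and was 2.59-fold higher with BPA than without it at 24 hr (adjusted p = 5.34e-07). Psph, the last enzyme of serine synthesis, was 4.19-fold higher 4 hr after KBrO3+BPA and 2.61-fold higher with BPA than without it at 24 hr. These genes were chosen for their likeness over the same arrays, so their fold changes describe that profile and are no separate result.

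Of the other 11 cytosolic synthetase genes, 7 were altered and higher and 2 lower 4 hr after KBrO3, against 6 and 0 of the 10, and 5 were higher at 24 hr, against 4 of the 10. With BPA added the counts against untreated were 7 higher and 2 lower at 4 hr and 6 higher at 24 hr. Over all genes tested, 14.4% and 16% were altered and higher at 4 hr and 7.9% and 10.8% at 24 hr, without and with BPA. The shares altered and lower at 4 hr were 16.7% and 19.7%. Among the 11, Yars, the tyrosine enzyme, had the largest rise (3.87-fold 4 hr after KBrO3+BPA). Tarsl2, a threonine synthetase-like gene, had the largest fall, by 1.16 on the log2 scale. In the direct comparisons of KBrO3+BPA with KBrO3, 0 of these 11 were altered at either time, and their medians were -0.05 at 4 hr and 0.05 at 24 hr. At an unadjusted p under 0.05 in limma's test, 5 of the 11 were higher and 2 lower at 4 hr, and 3 higher and 1 lower at 24 hr, whereas all 10 of the genes described were higher at both times. Over all genes tested, 30.4% were higher at this threshold at 4 hr and 31% at 24 hr. The 10 genes were named with results of these data known, so the contrast with the other 11 is a description.

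**Figure D5:**
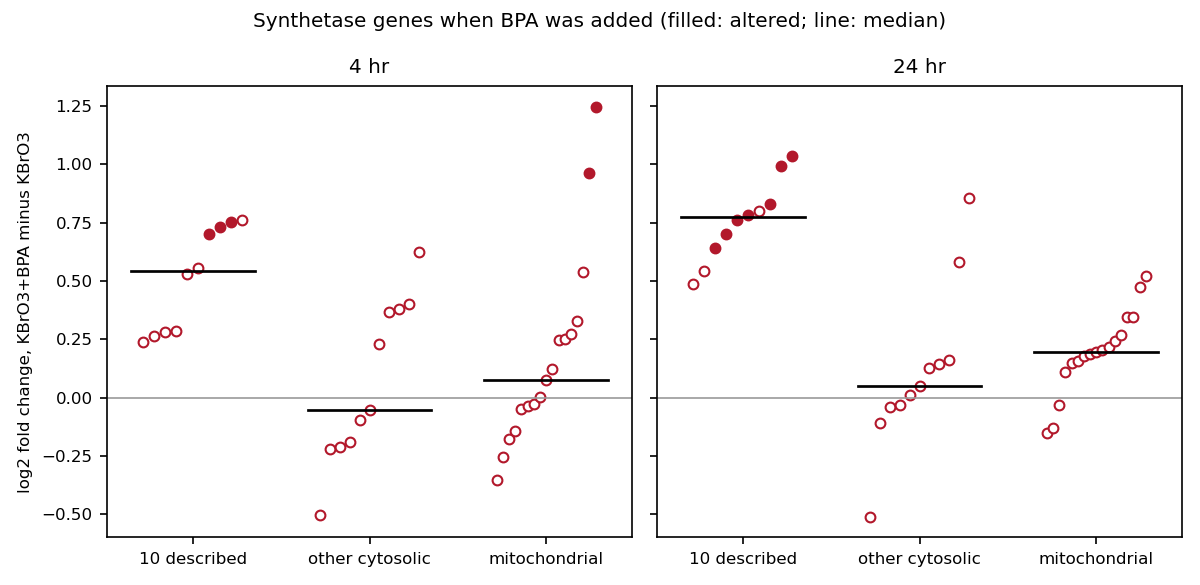
Log2 fold change of KBrO3+BPA minus KBrO3 at 4 and 24 hr for the 10 synthetase genes described, the other 11 cytosolic ones and 17 mitochondrial ones, with 1 point a gene, filled where altered, and lines at the medians. The medians at 24 hr are 0.77, 0.05 and 0.19.

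Of the 17 mitochondrial synthetase genes, 2 were higher and 5 lower 4 hr after KBrO3 (14.4% and 16.7% of all genes). After KBrO3+BPA, 3 were higher and 2 lower at 4 hr (16% and 19.7% of all genes), and 7 higher at 24 hr (10.8%). Among the 17, Mars2 had the largest rise (4.46-fold 4 hr after KBrO3). BPA added to KBrO3 left 2 of the 17 higher at 4 hr and 0 altered at 24 hr, against 2.84% and 3.78% of all genes higher. At an unadjusted p under 0.05 in limma's test, 12 were higher and 1 lower at 24 hr, where 31% of all genes were higher. Of the 3 scaffold genes of the multisynthetase complex, Aimp2 and Eef1e1 were altered and higher in all 4 comparisons with untreated arrays, whereas Aimp1 lay between -0.06 and 0.14. Eef1e1 reached 5.03-fold 4 hr after KBrO3+BPA. Of 6 elongation factor genes, 3 were higher 4 hr after KBrO3, with Eif5a at 2.82-fold, and 2 were higher 4 hr after KBrO3+BPA.

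Of 20 genes known as ATF4 targets, 11 were higher 4 hr after KBrO3 and 16 at each time after KBrO3+BPA, with 0 lower (shares of all genes as above, 14.4%, 16% and 10.8%). Most of them serve amino acid synthesis or transport, but the list also holds the lipoprotein receptor gene Vldlr and the growth regulators Ddit4, Sesn2 and Eif4ebp1, all of which were among those higher at each time after KBrO3+BPA. Slc7a11, the cystine transporter, was highest at 50.5-fold 4 hr after KBrO3+BPA. BPA added to KBrO3 left 11 of the 20 higher at 4 hr and 14 at 24 hr, against 2.84% and 3.78% of all genes. Of 15 regulators of the stress response, 10 were higher and 1 lower 4 hr after KBrO3+BPA (16% and 19.7% of all genes). Atf3 was 91.4-fold higher there, and Eif2ak3, which encodes the kinase PERK, fell by 1.23 on the log2 scale 24 hr after KBrO3+BPA. Atf4 itself, named after its values were seen, was 2.56-fold higher 4 hr after KBrO3, and 1.58-fold and 2.08-fold higher with BPA than without it at 4 and 24 hr. Of 19 interferon genes, 1 was higher and 4 lower 4 hr after KBrO3 (14.4% and 16.7% of all genes). At 4 hr after KBrO3+BPA, 4 were higher and 2 lower (16% and 19.7% of all genes), with Cxcl10 at 4.06-fold. Wars was not altered in either of these comparisons. At 24 hr after KBrO3+BPA, 5 of the 19 were higher and 0 lower (10.8% and 12.8% of all genes), and Wars was 2.47-fold higher. BPA added to KBrO3 left 4 of the 19 higher at 4 hr (2.84% of all genes), where Wars was not altered (1.20-fold). At 24 hr, 2 of the 19 (3.78% of all genes) and Wars (1.72-fold) were higher with BPA.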

How the data were processed

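Total RNA was labelled with Cy3 and hybridised to Agilent whole mouse genome arrays. The deposited intensity values are the processed signals that the authors obtained with Agilent Feature Extraction (12.0 per the submitters' processing notes, while the file headers name 9.5.3.1 for the first set and 12.0.0.7 for the second), which subtracts background. The series table holds the same intensities. From these, log2 values were taken, each array was scaled to its 75th percentile, outlier spots were dropped and spots of a probe averaged. Probes well above background on all arrays of at least 1 group were tested with limma 3.58.1 (R 4.3.3), in 1 fit per set. The methods describe 3 biological replicates per condition. Genes other than the 10 were named through RefSeq accessions, symbols or synonyms (8454 probes unmatched). The members and gene lists were chosen with earlier results of these data known. From each list, the genes with the largest rise and fall against untreated arrays were named (some are not reported here), and the 8 genes with profiles most like the mean of the 10. The limma fit was tested on simulated data. Xrcc6, labelled as deleted in all groups, was measured above background on every array and checks no difference between groups. Alternatives were other scalings (quantile, median), normexp background correction with an offset of 50 (on mean signals in the first set and, as its files hold no mean column, median signals in the second), filters, spot weights, blocks for slide and replicate number, and leaving out arrays.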

Additional observations from a re-analysis of the deposited data

Results flagged for a closer look

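For 6 genes the difference that BPA made on top of KBrO3 changed between 4 and 24 hr, by a test of the change itself (limma, Benjamini-Hochberg adjusted over all probes of the first set). Over all genes tested, 31% passed in the same direction. The log2 changes were 0.80 for Nars (adjusted p = 1.46e-05), 0.52 for Wars (0.000324), 0.44 for Sars (0.00136), 0.36 for Mars (0.000174), 0.30 for Aars (0.0195) and 0.21 for Eprs (0.00546). For Aars, 3 of its 5 probes passed in the opposite direction. On all 3 co-exposed arrays each of these genes was above all 3 KBrO3 arrays at both times, as were 37.7% of all genes at 4 hr and 28.6% at 24 hr. The groups at 4 hr shared no slide, so slide and treatment cannot be told apart there. With slide as a random block 4 of the 10 genes passed, and Aars and Eprs did not.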

How the results depend on the processing

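Normexp correction lowered 7 counts of altered genes, to 2 for KBrO3 against untreated at 4 hr, to 0 for KBrO3 at 24 hr, for both comparisons of KBrO3+BPA with KBrO3 and for both changes from 4 to 24 hr, and to 1 for the change of the BPA-added difference. Fitting only the groups compared lowered 8 counts and gave 1 and 0 for KBrO3 at 4 and 24 hr, 5 and 1 for KBrO3+BPA, 0 for KBrO3+BPA against KBrO3 at both times, and 1 and 0 for the changes with time after KBrO3 and KBrO3+BPA. That fit has fewer arrays for the spread. Median scaling gave 2 for KBrO3 at 24 hr and 0 for KBrO3+BPA against KBrO3 at 4 hr, where no filter on dim probes gave 1. With slide as a block the counts were 1 for KBrO3 at 24 hr, 0 for KBrO3+BPA against KBrO3 at 4 hr and 1 for the change with time after KBrO3+BPA. The Benjamini-Hochberg rule gave 2 for BPA at 24 hr, each on its brightest probe only. Replicate numbers did not pair the arrays (deviations of same-numbered arrays correlated at -0.03 on average over the first set). With the replicate block the counts were 2 for KBrO3 at 24 hr, 1 and 4 for KBrO3+BPA against KBrO3 at 4 and 24 hr, and 1 for the change with time after KBrO3+BPA. Values of the series table are identical and changed nothing.

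Leaving out each array in turn gave 6 for KBrO3 at 4 hr, 2 at 24 hr, 7 to 8 and 9 to 10 for KBrO3+BPA, 0 to 1 and 4 to 6 for KBrO3+BPA against KBrO3, 2 for the change after KBrO3, 1 to 3 for that after KBrO3+BPA, 6 to 7 for the change of the BPA-added difference, and 0 for BPA alone.

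Signs of single genes turned in few cases, none of them called before except Aars in the change of the BPA-added difference (-0.55 as the mean of its probes). After quantile normalization, Aars (0.057), Cars (0.049) and Iars (0.017) turned for 24 against 4 hr of KBrO3, Aars (0.14) and Sars (0.21) for KBrO3+BPA, Mars (-0.021) for KBrO3 at 4 hr and Lars (-0.086) for the change of the BPA-added difference. With median scaling, Aars (0.17), Cars (0.21), Eprs (0.28) and Sars (0.36) turned for 24 against 4 hr of KBrO3+BPA, Cars (0.28) and Iars (0.10) for the change of the BPA-added difference, and Gars (0.044) for BPA at 24 against 4 hr. That value was 0.085 for Gars with normexp, which also took Lars to -0.029 in the change of the BPA-added difference. With slide as a block, Cars (-0.0066), Iars (-0.31) and Mars (-0.21) turned for BPA at 24 against 4 hr, and Sars (-0.025) for KBrO3 at 24 hr. As the mean of its probes, Lars was -0.20 for BPA at 24 against 4 hr. With 1 array left out, Cars ran from -0.071 to 0.040 in the change of the BPA-added difference, Eprs from -0.0016 upward for BPA at 4 hr, and Gars from -0.24 to 0.1 and Nars from -0.044 to 0.23 for BPA at 24 against 4 hr. The cause was not tested.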
